A study of Mus musculus with 10 samples.

Results

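The 38 cell proliferation genes described here were chosen by symbol. They comprise the proliferation markers *Mki67* and *Top2a*, 6 cyclin and cyclin-dependent kinase genes, 8 genes of mitotic kinases, the spindle checkpoint and the anaphase-promoting complex, 3 kinetochore genes, 7 genes of spindle motors, spindle assembly and cytokinesis, 7 genes of replication licensing and the replication fork, 3 genes of nucleotide synthesis and the transcription factor genes *Foxm1* and *E2f1*. All 38 were found among the 53974 genes of the RNA-seq table, and 30 of them were among the 17555 genes tested. Of the 16600 regions in the ATAC-seq comparison, 8002 lay within 1000 bp of an end of any gene and 27 within 1000 bp of an end of a member.

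The study asked how loss of *Arid1a*, which encodes a DNA-binding subunit of the SWI/SNF chromatin remodelling complex, acts after crush of the optic nerve (ONC) in retinal ganglion cells (RGCs). All mice were C57BL/6 mice aged 8 to 10 weeks that carried *Arid1a* fl/fl. The WT group had been given AAV2-GFP, and the cKO group (*Arid1a* del/del) AAV2-Cre, by injection into the vitreous 2 weeks before ONC. Every eye that was sequenced had been crushed, so the data hold no uninjured retina, and retinal cells were sorted with Thy1.2-PE and DAPI 3 days after ONC. Both viruses used a CMV promoter, which is not restricted to a cell type. The paper gives a higher titer for AAV2-GFP than for AAV2-Cre, so that titer and label cannot be told apart. It proposes that titers and surgery may bear on its terms of viral infection and immunity. RNA-seq covered 3 WT and 3 cKO libraries and ATAC-seq, which measures open chromatin, covered 2 WT and 2 cKO libraries. Each library pooled 4 to 5 retinas, so that the tests measure the spread between pools.

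Cells that divide license their replication origins in G1, when E2F factors switch on genes of the MCM helicase and of nucleotide synthesis. They then express a later wave of genes for mitosis, which the DREAM complex holds silent in resting cells and B-MYB and FOXM1 activate. Promoters of such genes often hold CCAAT and cell cycle homology region elements. RGCs are postmitotic neurons that do not divide in the adult, whereas activated lymphocytes, microglia and other glia can re-enter the cell cycle.

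The promoters of 6 members are printed here because these were the members with an unadjusted p under 0.05 in RNA-seq, and each had a peak of open chromatin at the promoter in at least 1 WT library. Each line gives the 250 bases before the annotated start site, 5′ to 3′ on the strand of the gene, from RefSeq and GRCm38.p6. Capitals mark CCAAT boxes (CCAAT), the cell cycle homology region (TTTGAA or TTCGAA) and E2F motifs (TTTCCCGC, TTTCGCGC, TTTGCCGC or TTTGGCGC), searched on both strands.
Ndc80 (chr17:71526858-71527107, strand minus): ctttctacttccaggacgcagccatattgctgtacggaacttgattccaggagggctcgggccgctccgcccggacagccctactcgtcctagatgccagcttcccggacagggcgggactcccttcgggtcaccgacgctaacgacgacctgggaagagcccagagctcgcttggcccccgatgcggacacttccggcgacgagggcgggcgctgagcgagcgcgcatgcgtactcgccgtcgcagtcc
Mcm3 (chr1:20820313-20820562, strand minus): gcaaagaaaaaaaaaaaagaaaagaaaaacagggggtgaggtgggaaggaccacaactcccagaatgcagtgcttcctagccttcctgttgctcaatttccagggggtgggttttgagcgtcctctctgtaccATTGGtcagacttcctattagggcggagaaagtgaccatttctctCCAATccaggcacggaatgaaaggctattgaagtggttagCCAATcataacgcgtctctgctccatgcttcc
Mcm6 (chr1:128359706-128359955, strand minus): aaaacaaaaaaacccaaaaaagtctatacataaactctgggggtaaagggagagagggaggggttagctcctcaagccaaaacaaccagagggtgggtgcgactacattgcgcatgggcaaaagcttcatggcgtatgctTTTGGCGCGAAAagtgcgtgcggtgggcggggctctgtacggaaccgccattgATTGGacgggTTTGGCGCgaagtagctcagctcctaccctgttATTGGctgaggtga
Mcm5 (chr8:75109259-75109508, strand plus): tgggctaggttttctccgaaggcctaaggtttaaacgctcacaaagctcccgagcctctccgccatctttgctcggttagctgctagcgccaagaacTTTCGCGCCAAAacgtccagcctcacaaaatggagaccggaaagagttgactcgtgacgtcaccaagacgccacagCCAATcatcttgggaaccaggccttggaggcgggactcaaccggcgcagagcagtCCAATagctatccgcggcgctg
Kif11 (chr19:37376132-37376381, strand plus): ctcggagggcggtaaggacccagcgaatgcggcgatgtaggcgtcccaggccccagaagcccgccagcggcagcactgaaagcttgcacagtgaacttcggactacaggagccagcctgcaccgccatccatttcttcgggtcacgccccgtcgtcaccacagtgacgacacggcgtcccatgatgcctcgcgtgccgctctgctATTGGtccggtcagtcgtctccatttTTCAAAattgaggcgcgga
Top2a (chr11:99024190-99024439, strand minus): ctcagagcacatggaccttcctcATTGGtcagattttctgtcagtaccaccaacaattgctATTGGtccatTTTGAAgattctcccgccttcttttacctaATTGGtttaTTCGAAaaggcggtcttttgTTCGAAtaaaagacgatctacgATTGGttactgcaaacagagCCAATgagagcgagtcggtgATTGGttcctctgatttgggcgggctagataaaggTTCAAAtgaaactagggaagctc
The *Top2a* promoter held 6 CCAAT boxes and 4 cell cycle homology regions. In the *Mcm5* and *Mcm6* promoters, E2F motifs on opposite strands overlapped in 1 run of capitals each. *Mcm3* held 3 CCAAT boxes and no E2F motif, and *Ndc80* held none of the motifs.

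Promoters were listed for 31 of the 38 members, as 33 promoters. A CCAAT box was present in 27 of 33 member promoters (81.8%) and in 33.8% of 32851 mouse promoters of the same length. The cell cycle homology region was present in 11 of 33 (33.3%) and in 17.1% of all promoters. An E2F motif was present in 4 of 33 (12.1%) and in 1.86% of all promoters. These are matches of letters and not measured binding sites. Promoters of *Ccna2*, *Ccne2*, *Aurkb*, *Tpx2*, *Mcm4*, *Foxm1* and *Kif20a* were not analysed here.

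Before the comparison, the labels were checked against the targeted gene. *Arid1a* RNA was 18.8, 11.7 and 14.1 TPM (a transcript level scaled by transcript length and by library) in WT replicates 1 to 3, and 18.8, 27.9 and 25 TPM in cKO replicates 1 to 3. It was not lower in the libraries labelled cKO (log2 fold change 0.66, SE 0.28, adjusted p = 0.274 from limma), and TPM cannot show whether the transcripts lacked the floxed part. RNA directions are therefore given between libraries labelled WT and cKO. By staining of retinal sections, a measure of protein, the paper reports less ARID1A in Tuj1-positive cells after AAV2-Cre than after AAV2-GFP. The 14 RGC markers summed to 189 to 274 TPM in WT and to 258 to 292 TPM in cKO. The highest of them were *Thy1*, the antigen of the sort, at 51.9 to 129 TPM, and *Isl1* at 51.9 to 104 TPM. Of the defining RGC factors, *Pou4f2* was at no more than 0.143 TPM in any library and *Rbpms* was at 1.82 to 6.43 TPM. The sum is therefore no measure of the share of RGCs. Markers of other cell types, given below with the members' levels, were present in every library. In such bulk libraries, fewer cells of a type and less RNA per cell cannot be told apart.

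The members were expressed at low levels. Averaged over the 6 libraries, 8 members were below 1 TPM, 15 were between 1 and 5 TPM, 4 were between 5 and 10 TPM and 11 were at 10 TPM or more. The median of the member means was 3.41 TPM, beside 14.98 TPM over all genes tested. *Cenpf*, a kinetochore protein of mitosis, was lowest at 0.396 TPM. The highest member was *Rrm1*, the large subunit of ribonucleotide reductase, at 28.4 TPM. Its level was 27.7, 23.6 and 40.2 TPM in WT and 25.7, 24.7 and 28.2 TPM in cKO, with overlapping groups. The 4 highest members, *Rrm1*, *Pcna*, *Mcm7* and *Ccne2*, act in S phase or at its entry, whereas the mitotic genes *Cdk1*, *Bub1* and *Cenpf* were at or near 0 in some libraries.

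**Figure D1:**
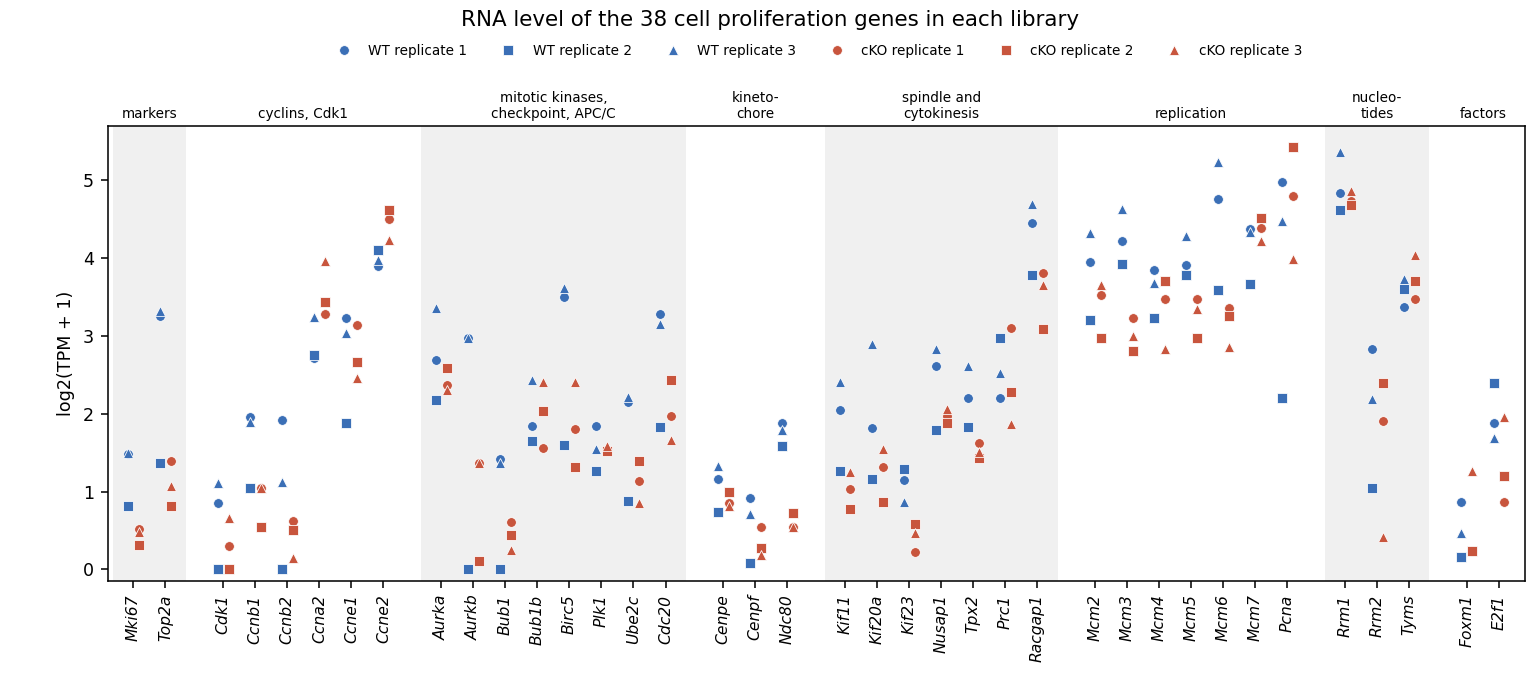
RNA level of the 38 members in each library as log2(TPM + 1), ordered by role, with 1 point per library (blue, WT; red, cKO; circle, square and triangle, replicates 1, 2 and 3). For most mitotic members, WT replicates 1 and 3 lie above the cKO libraries and WT replicate 2 (blue squares) lies near them, while *Ccna2* and *Ccne2* are higher in all 3 cKO libraries.

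No member passed the threshold of adjusted p under 0.05 (limma on log2(TPM + 1), Benjamini-Hochberg over all 17555 genes). Among all genes, 0% were called lower in cKO and 0.0057% were called higher. At an unadjusted p under 0.05, 6 of the 30 tested members were lower in cKO, beside 6.45% of all genes tested, and 0 were higher, beside 11.9% of all genes. These 6 were *Ndc80*, *Mcm3*, *Mcm6*, *Top2a*, *Mcm5* and *Kif11*. Of them, *Ndc80* passed the level filter through its WT libraries alone, and a gene that passes in this way had to differ. By sign alone, 23 of the 30 were lower and 7 were higher, beside 38.9% lower and 61.1% higher over all genes. The median log2 fold change of the members was −0.54 (−0.79 to −0.30 when a single library was left out), beside 0.16 over all genes. Of all 38 members, 31 had a lower mean TPM in cKO, as did 7037 of the 17555 genes tested.

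The count of 6 depended on single libraries. It was 15 without WT replicate 2 (where 7.90% of all genes were lower at that p), 2 without WT replicate 1 (6.74%) or without WT replicate 3 (5.13%), 4 without cKO replicate 1 (4.99%), and 3 without cKO replicate 2 (3.97%) or without cKO replicate 3 (6.95%). *Ndc80* and *Mcm3* were in each of these counts, but the difference of *Ndc80* followed from the level filter. With the replicate number as a block, 9 members were lower (8.52% of all genes) and 1 (*Ccna2*) was higher (13.4%) at an unadjusted p under 0.05, and the count at the adjusted threshold stayed 0. With libraries scaled by their median of ratios, which moved the median of all genes from 0.16 to 0.01, 8 members were lower (9.54% of all genes) and 0 higher (7.62%). The same scaling moved the share of higher genes among all genes with an unadjusted p under 0.05 from 64.9% to 44.4%.

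**Figure D2:**
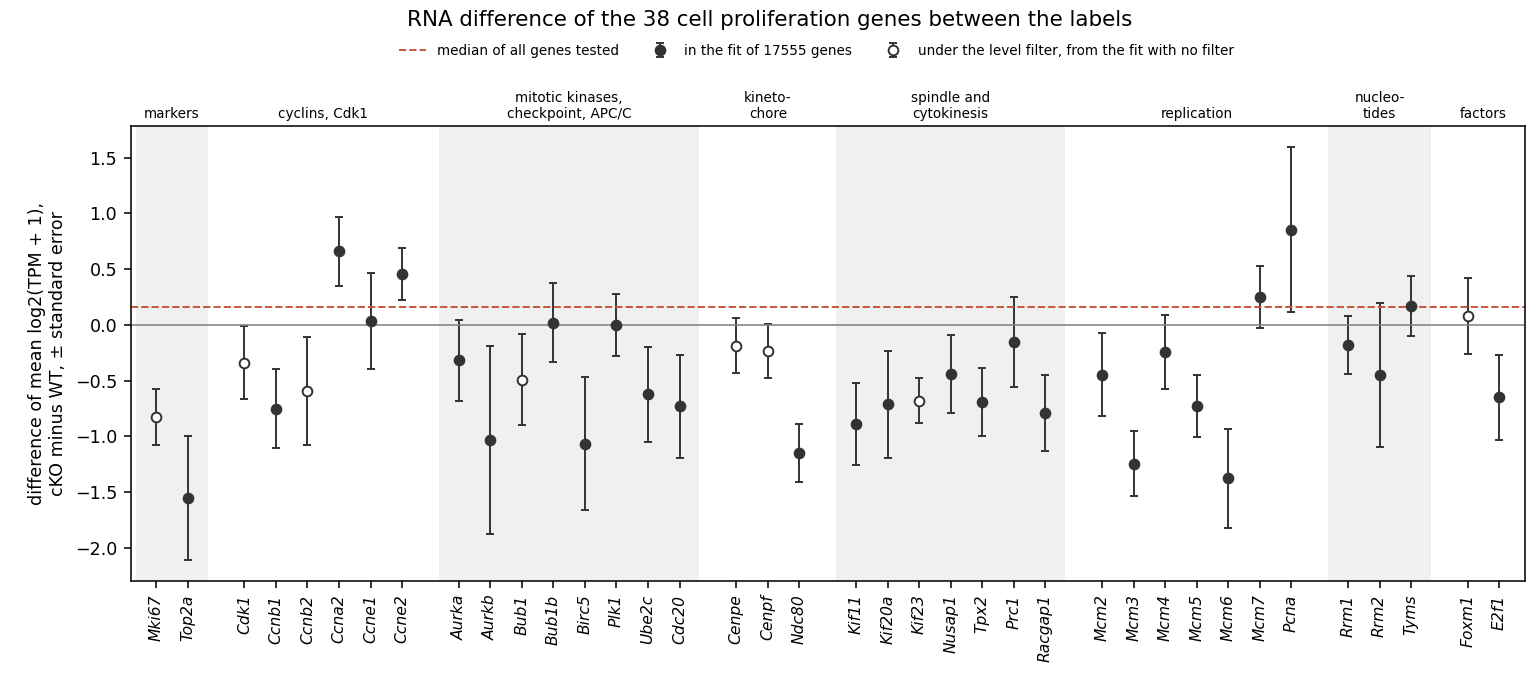
Difference of mean log2(TPM + 1), cKO minus WT, of each member with its standard error from limma (3 libraries a group), by role; open circles are the 8 members below the level filter, and the dashed line is the median of all genes tested (0.16). Most members lie below 0, and no difference passed the adjusted threshold.

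Of the 2 proliferation markers, *Mki67* encodes Ki-67, a coat protein of mitotic chromosomes present in cycling cells. Its level was 1.79, 0.765 and 1.81 TPM in the WT libraries and 0.438, 0.247 and 0.393 TPM in the cKO libraries. Every cKO library was below every WT library, and the mean was 4.05-fold higher in WT, but levels were too low for the filter of 1 TPM in at least 3 libraries. In a fit with no filter (30472 genes), its log2 fold change was −0.82 (SE 0.25, adjusted p = 0.290). *Top2a*, the DNA topoisomerase of dividing cells, was at 8.58, 1.59 and 8.98 TPM in WT and at 1.63, 0.760 and 1.10 TPM in cKO. WT replicates 1 and 3 were high, and WT replicate 2 was at the level of cKO replicate 1, so that the groups overlapped. The log2 fold change of *Top2a* was −1.56 (SE 0.56, adjusted p = 0.211) and was between −2.19 and −1.22 when a single library was left out.

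*Cdk1*, the kinase that drives entry into mitosis, was at 0.813, 0 and 1.16 TPM in WT and at 0.231, 0 and 0.579 TPM in cKO. It was listed at 0 in 1 library of each group and was not tested with the filter. *Ccnb1*, the cyclin B1 partner of CDK1, was at 2.89, 1.06 and 2.71 TPM in WT and at 1.06, 0.459 and 1.07 TPM in cKO. The 2 high WT libraries stood above all others and WT replicate 2 lay among the cKO libraries (log2 fold change −0.75, SE 0.35, adjusted p = 0.308). *Ccnb2* was listed at 0 in WT replicate 2 and was at 2.80 TPM in WT replicate 1.

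The differences of the cyclins of S phase and its entry had the opposite sign. *Ccna2*, cyclin A2, was at 5.55, 5.76 and 8.50 TPM in WT and at 8.77, 9.80 and 14.7 TPM in cKO, and *Ccne2*, cyclin E2, was at 13.99, 16.2 and 14.7 TPM in WT and at 21.6, 23.5 and 17.8 TPM in cKO. For both genes every cKO library was above every WT library, with log2 fold changes of 0.66 (SE 0.31, adjusted p = 0.307) and 0.45 (SE 0.23, adjusted p = 0.341). *Ccne1* overlapped between groups, with a log2 fold change of 0.04 that became −0.12 in scaled libraries. The 4 cyclin genes tested had a median of 0.24, which was −0.15 over all 6 genes of the group with no filter on low values.

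Of the 3 kinetochore genes, *Ndc80* encodes the outer kinetochore protein that binds spindle microtubules. It was at 2.69, 2.004 and 2.46 TPM in WT and at 0.465, 0.647 and 0.455 TPM in cKO. The WT libraries agreed closely and all cKO libraries lay below them, a mean of 2.38 ± 0.347 TPM against 0.522 ± 0.109 TPM (SD, n = 3 each). It had the lowest unadjusted p of the members (log2 fold change −1.15, SE 0.26, adjusted p = 0.124, or −2.001 with a pseudocount of 0.1), but it passed the level filter through its WT libraries alone, and a gene that passes in this way had to differ. *Cenpe*, a kinetochore motor, and *Cenpf* did not pass the filter and their groups overlapped.

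Among the mitotic kinase, checkpoint and anaphase-promoting complex genes, 6 of the 7 tested were lower in cKO by sign and none had an unadjusted p under 0.05. *Birc5* (survivin) and *Aurkb*, 2 subunits of the chromosomal passenger complex, had the largest differences (log2 fold changes of −1.06 with SE 0.60 and −1.03 with SE 0.84). *Aurkb* was at 6.84, 0 and 6.83 TPM in WT and at 1.57, 0.0801 and 1.57 TPM in cKO. The library listed at 0 was again WT replicate 2. *Plk1* had a log2 fold change of −0.0025 (SE 0.28), and *Bub1b* one of 0.02 (SE 0.36) that became −0.11 after scaling. *Aurka*, *Ube2c* and *Cdc20* lay between −0.73 and −0.32, and *Bub1* did not pass the filter.

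The spindle and cytokinesis genes had the same sign throughout, since all 6 tested were lower in cKO with a median of −0.70 (−0.37 without WT replicate 3). *Kif11*, the motor that separates the spindle poles, was at 3.14, 1.41 and 4.33 TPM in WT and at 1.05, 0.711 and 1.37 TPM in cKO. Its groups did not overlap, although WT replicate 2 exceeded cKO replicate 3 by little, and the log2 fold change was −0.89 (SE 0.37, adjusted p = 0.262). *Tpx2*, which activates Aurora A on the spindle, also had every cKO library below every WT library (−0.69, SE 0.31, adjusted p = 0.286). *Kif23*, a motor of the midbody, was at 1.21, 1.45 and 0.830 TPM in WT and at 0.172, 0.494 and 0.380 TPM in cKO, with groups that did not overlap. It did not pass the filter, and with no filter its log2 fold change was −0.68 (SE 0.20, adjusted p = 0.280). *Kif20a*, *Nusap1* and *Racgap1* lay between −0.79 and −0.44, and *Prc1* was at −0.15 (0.05 without WT replicate 2 and 0.12 without cKO replicate 3).

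The replication genes divided. *Mcm3* was at 17.6, 14.2 and 23.9 TPM in WT and at 8.38, 6.00 and 7.03 TPM in cKO, *Mcm5* was at 14.1, 12.7 and 18.4 TPM in WT and at 10.1, 6.85 and 9.14 TPM in cKO, and *Mcm6* was at 26.2, 11.1 and 36.8 TPM in WT and at 9.31, 8.53 and 6.27 TPM in cKO. In these 3 subunits of the MCM2-7 helicase every cKO library was below every WT library. The log2 fold changes were −1.24 (SE 0.29, adjusted p = 0.125) for *Mcm3*, −0.73 (SE 0.28, adjusted p = 0.230) for *Mcm5* and −1.37 (SE 0.44, adjusted p = 0.184) for *Mcm6*. The *Mcm6* value was between −1.84 and −1.02 when a single library was left out.

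The other subunits of the same helicase overlapped between groups. *Mcm2* was at 14.5, 8.24 and 19.1 TPM in WT and at 10.5, 6.86 and 11.6 TPM in cKO (−0.44, SE 0.37, adjusted p = 0.558). *Mcm7* was at 19.7, 11.8 and 19.2 TPM in WT and at 20.0, 22.0 and 17.6 TPM in cKO (0.25, SE 0.28, adjusted p = 0.667). Only WT replicate 2 stood below the rest for *Mcm7*. *Pcna*, the sliding clamp of DNA polymerases, was at 30.6, 3.61 and 21.3 TPM in WT and at 27.0, 42.1 and 14.96 TPM in cKO. Its log2 fold change was 0.86 (SE 0.74, adjusted p = 0.574) and was 0.01 without WT replicate 2, so that the value rested on that library. The differences between subunits were not tested against each other.

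The 3 genes of nucleotide synthesis overlapped between groups. *Rrm1* had a log2 fold change of −0.18 (SE 0.26), *Rrm2*, the small subunit of ribonucleotide reductase, one of −0.45 (SE 0.65), and *Tyms*, thymidylate synthase, one of 0.17 (SE 0.27). Of the transcription factors, *E2f1*, an activator of genes of S phase, was at 2.67, 4.28 and 2.22 TPM in WT and at 0.816, 1.29 and 2.87 TPM in cKO, where cKO replicate 3 lay within the WT range (−0.65, SE 0.38, adjusted p = 0.404). *Foxm1*, an activator of mitotic genes, was at 0.829, 0.114 and 0.377 TPM in WT and at 0.178, 0.179 and 1.40 TPM in cKO. It did not pass the filter, and its highest library was cKO replicate 3.

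Over all genes tested, every cKO library was below every WT library for 7.18% and above for 18.7%. Among the 30 tested members these counts were 6 below and 2 above, and among all 38 they were 8 and 2. The 6 below include *Ndc80*, whose lack of overlap followed from the level filter. With 3 libraries against 3, an exact two-sided permutation test cannot give a p under 0.1. With no filter on low values, 7 of the 38 members were lower at an unadjusted p under 0.05, beside 4.06% of 30472 genes, and 0 were higher.

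The libraries of the WT group differed among themselves. WT replicate 3 held the highest value of 18 members and WT replicate 1 that of 11, whereas WT replicate 2 held the lowest value of 14 members. WT replicate 2 was below both other WT libraries for 32 of the 38 members. The median member was at 5.29, 2.304 and 6.30 TPM in WT replicates 1 to 3 and at 2.295, 2.28 and 2.41 TPM in cKO replicates 1 to 3. By this measure WT replicate 2 could not be told from the cKO libraries. The TPM of the 20 mitotic members summed to 96.9, 46.3 and 115 in WT and to 48.9, 38.6 and 45.2 in cKO. The 6 cyclin and CDK genes summed to 34.5, 25.7 and 35.6 in WT and to 40.1, 39.5 and 38.7 in cKO. Of these 6 genes, 4 had a lower mean TPM in cKO, and *Ccna2* and *Ccne2* had a higher one. The mitotic *Cdk1*, *Ccnb1* and *Ccnb2* were counted among these 6 and not among the 20.

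Markers of T and B cells were also lowest in WT replicate 2 among the WT libraries. Their sums were highest in WT replicate 1, whereas the sum of the mitotic members was highest in WT replicate 3. WT replicate 2 was below both other WT libraries for 16 of 16 T cell and 6 of 6 B cell markers. Over all genes tested this share was 29.6%. The same held for 5 of 5 erythrocyte, 7 of 10 housekeeping, 7 of 12 myeloid and microglial and 4 of 8 endothelial and pericyte markers. It held for 2 of 6 cone and 2 of 14 RGC markers. Of the rod markers, *Gnat1*, *Pde6b*, *Sag* and *Cnga1* had this order, and *Pde6a* and *Nrl* did not. None of the 8 Mueller glia and astrocyte, 7 amacrine and 6 bipolar cell markers had this order. The summed TPM of 16 T cell markers was 3572, 1237 and 3029 in WT and 751, 315 and 709 in cKO. All 16 T cell markers were lower in cKO by sign, 14 of them at an unadjusted p under 0.05, beside 6.45% of all genes. The B cell markers (6 genes) were at 81.2 to 236 TPM in WT and at 34.4 to 55.4 TPM in cKO. The myeloid and microglial markers (12 genes) were at 1273 to 2253 TPM in WT and at 696 to 912 TPM in cKO. In WT, *C1qa* and *C1qb* had means of 684 and 395 TPM, within a mean sum of 1640 TPM. Of these 12, 11 were lower in cKO by sign, but only 4 at an unadjusted p under 0.05. The mean of *P2ry12* was 34.9 TPM in WT and 35.7 TPM in cKO. The summed TPM of 6 rod markers was 5089, 4172 and 6382 in WT replicates 1 to 3 and 9725 to 17709 in cKO. All 6 rod markers were higher in every cKO library than in every WT library, beside 18.7% of all genes. The part of these cells in the levels of the cell proliferation genes was not tested.

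**Figure D3:**
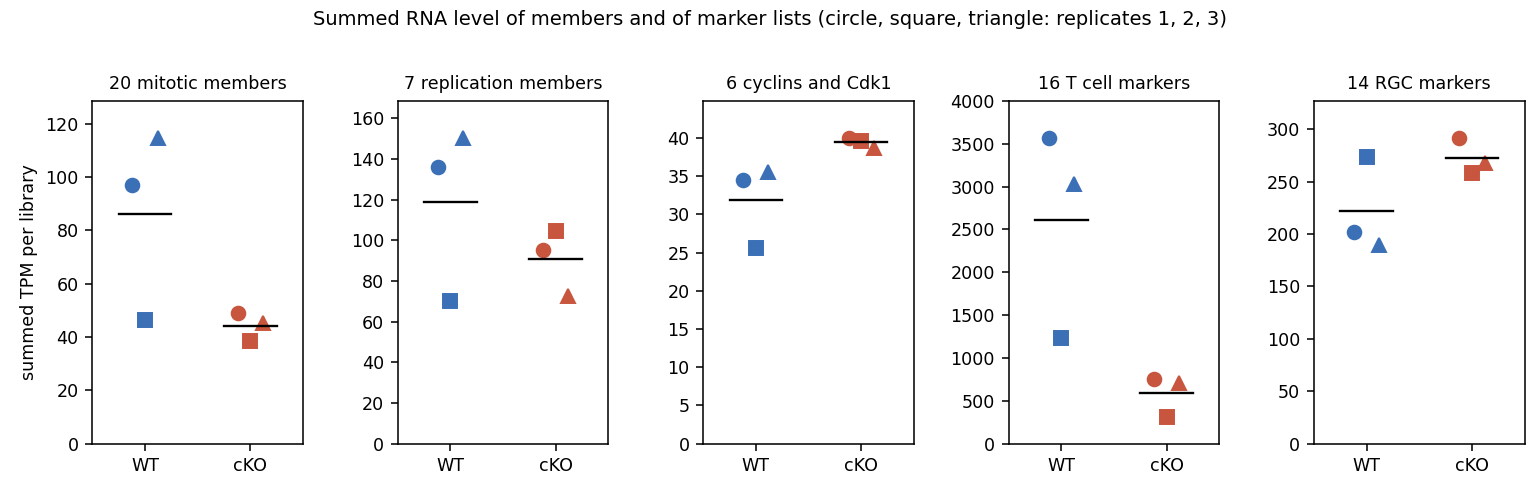
Summed TPM per library of 3 sets of members and of 2 lists of cell type markers, with points for libraries (circle, square and triangle, replicates 1, 2 and 3) and lines for group means; each panel has its own axis from 0. WT replicate 2 lies near the cKO libraries for the mitotic members and is the lowest WT library for T cell markers.

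The other cell cycle genes were read from lists of 112 symbols, of which 89 were tested. None passed the adjusted threshold. At an unadjusted p under 0.05, 12 were lower in cKO, beside 6.45% of all genes, and 1 was higher, beside 11.9%. These 12 include *Cdc6*, which passed the level filter through its WT libraries alone, and a gene that passes in this way had to differ. *Cdc6* was also in each of the counts of lower genes below. By sign 66 were lower and 23 higher, with a median of −0.30, and 38.9% of all genes were lower by sign. With the replicate block 16 were lower (8.52% of all genes) and 2 were higher (13.4%), and with the libraries scaled 20 were lower (9.54%). The count of lower genes was 19 without WT replicate 2 (7.90% of all genes), 7 without WT replicate 3 (5.13%) or without cKO replicate 1 (4.99%), and 5 without cKO replicate 2 (3.97%).

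The list of D cyclins, *Cdk4*, *Cdk6* and *Cdk2*, whose products drive passage through G1 into S phase, was lower by sign in 6 of 6 genes (median −0.87). *Ccnd2* was at 122, 48.7 and 129 TPM in WT and at 23.8, 10.6 and 22.1 TPM in cKO, with no overlap (−2.30, SE 0.47, adjusted p = 0.124). *Ccnd1* was at 40.7, 67.0 and 65.6 TPM in WT and at 22.8, 17.1 and 46.0 TPM in cKO (−1.07, SE 0.40, adjusted p = 0.225), and cKO replicate 3 lay above WT replicate 1. The inhibitors of CDKs, which hold cells out of the cycle, were also lower by sign in 6 of 6 genes tested (median −0.64). *Cdkn1a*, which encodes p21, was at 19.0, 16.8 and 11.7 TPM in WT and at 7.06, 2.65 and 4.73 TPM in cKO, with no overlap (−1.58, SE 0.37, adjusted p = 0.127). *Cdkn2b* had a log2 fold change of −0.86 (SE 0.41, adjusted p = 0.310). Activators and inhibitors of passage through G1 thus had the same sign.

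In the replication list, 23 of 27 genes tested were lower by sign (median −0.23). *Cdc7*, the kinase that fires licensed origins, was the gene with an unadjusted p under 0.05 that was higher, at 22.4, 16.9 and 19.8 TPM in WT and at 55.2, 52.4 and 38.5 TPM in cKO (1.256, SE 0.24, adjusted p = 0.124). *Cdc6*, which loads the MCM helicase, was at 2.12, 2.12 and 5.02 TPM in WT and at 0.680, 0.753 and 0.839 TPM in cKO (−1.15, SE 0.34, adjusted p = 0.168). The groups of *Cdc7* did not overlap. *Cdc6* passed the level filter through its WT libraries alone, so that the lack of overlap there followed from the filter. In the mitotic list, 25 of 35 were lower by sign (median −0.35). *Cdca8*, which encodes the passenger protein borealin, had a log2 fold change of −1.63 (SE 0.37, adjusted p = 0.124) and *Pttg1*, securin, one of −1.54 (SE 0.44, adjusted p = 0.153). The pocket proteins, other E2F genes and DREAM subunits were split, with 6 lower and 9 higher (median 0.02), and *E2f2* (−0.89, SE 0.42, adjusted p = 0.305) and *Rbl1* (−0.79, SE 0.40, adjusted p = 0.337) had the lowest p of that list.

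In ATAC-seq, the values are log2 of the mean normalized reads of the 2 libraries of a group, as given by the authors, with no value per library, so that no error or test can be given. The 27 regions lay at ends of 26 members and were 391 to 1369 bp wide. Of the 22 regions at members with a listed start site, 20 covered it. In 25 of the 27 regions the cKO mean was under the WT mean, and in 22 (81.5%) it was at least 4-fold under it, beside 67.6% of the 8002 regions at gene ends and 40.8% of all regions. The median difference was −2.62 (log2) at the members and −2.50 at all gene ends. The median region at a member had 26.9 reads in WT and 5.03 reads in cKO, and at all gene ends it had 31.3 and 6.15 reads. The median at the members lay within the quartiles of all gene ends (−3.22 and −1.75).

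The 6 regions with the highest WT means were all at genes of S phase or its entry. At *Mcm4*, which shares this region with the neighbouring *Prkdc*, the region at chr16:15636996-15637977 (GRCm38) had 105 reads in WT and 7.31 in cKO. At *Ccne1*, the region at chr7:38107445-38108131 had 74.0 and 4.76 reads, and at *Pcna* the region at chr2:132252582-132253419 had 70.5 and 3.86 reads. The *Pcna* region had the largest difference of the 27, 18.3-fold, and also lay near an end of *Cds2*. At *Ccne2* (chr4:11190921-11192183) the means were 60.5 and 9.45 reads, at *Mcm5* (chr8:75108728-75109765) 54.2 and 10.9 reads, and at *Mcm7* (chr5:138171035-138172403, also near *Ap4m1*) 53.8 and 9.71 reads. Of all 27 regions, 12 were also within 1000 bp of an end of another gene.

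The difference was above 0 in 2 regions of few reads. The region at the start of *Tyms* (chr5:30073561-30073951) had 6.02 reads in WT and 6.87 in cKO, and the region at the 3′ end of *Cdk1* (chr10:69335015-69335587) had 6.28 and 7.06 reads. The region at the 5′ end of *Cdk1* (chr10:69352288-69353325) had 26.9 and 7.46 reads.

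**Figure D4:**
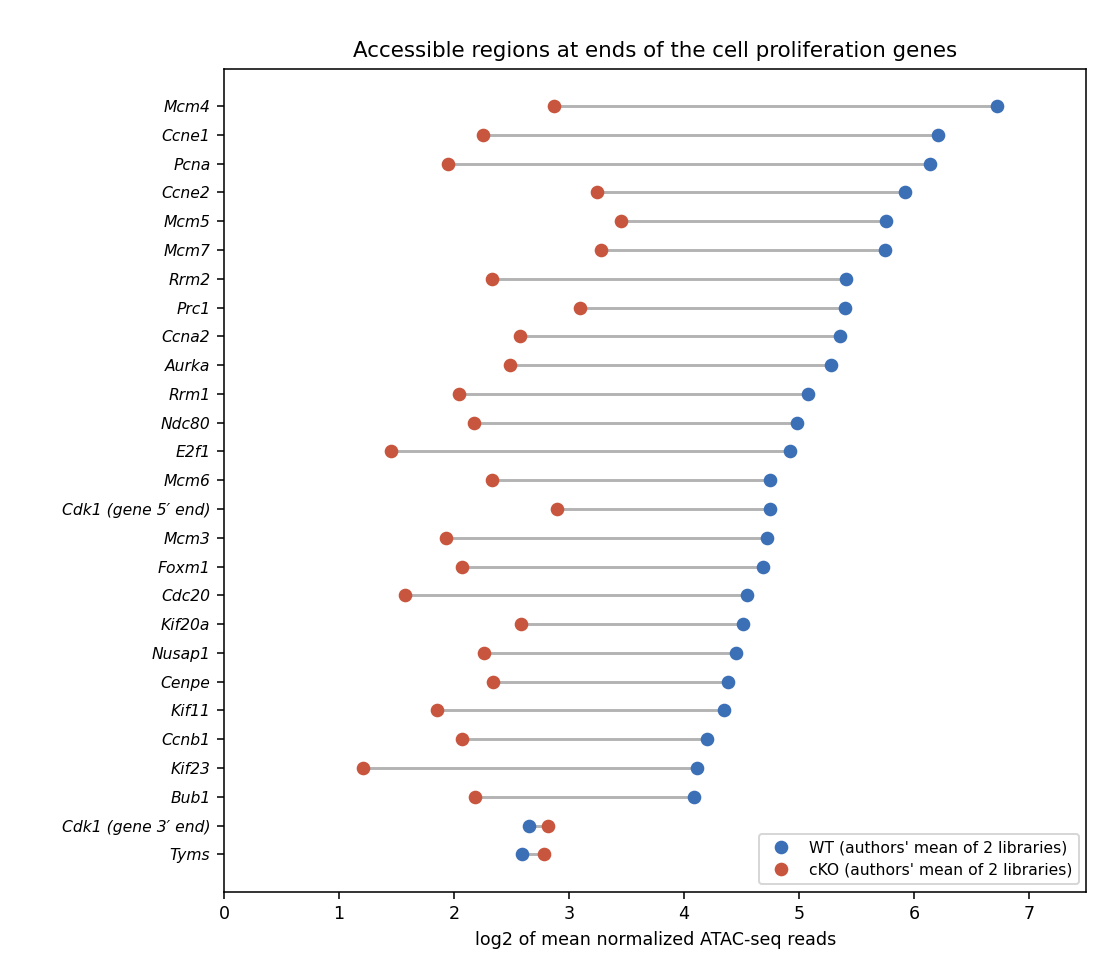
Log2 of the mean normalized ATAC-seq reads (the authors' means of 2 libraries) in the 27 regions at ends of members, with WT in blue and cKO in red joined by a line, ordered by the WT mean. In 25 regions the cKO point lies left of the WT point, and at *Tyms* and the 3′ end of *Cdk1* both are low and cKO is slightly to the right.

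The 5 members with both a region and an unadjusted p under 0.05 in RNA-seq, whose promoters are printed above, all had fewer reads in cKO. Their differences were −2.81 at *Ndc80*, −2.79 at *Mcm3*, −2.50 at *Kif11*, −2.42 at *Mcm6* and −2.31 at *Mcm5*, which all lay within those quartiles. The regions within 1000 bp of an end of *Ccne2* and of *Ccna2*, whose RNA was higher in every cKO library, had differences of −2.68 and −2.79. Start sites of these genes were not listed, and the *Ccna2* region also lay near an end of *Bbs7*. Of the 26 members with a region, 20 had a lower mean TPM in cKO and 6 a higher one, and of the 12 without a region 11 had a lower mean. Over all genes tested, 7037 of 17555 had a lower mean. *Mki67*, *Top2a*, *Plk1*, *Mcm2* and *Birc5* were among those without a region.

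The peak lists, called on each library alone, give the libraries singly. A peak lay within 1000 bp of an end of 34 members in WT replicate 1, 26 in WT replicate 2, 5 in cKO replicate 1 and 4 in cKO replicate 2. Among 15516 tested genes with a position, these shares were 65.1%, 58.2%, 13.6% and 13.9%, and those of the members 89.5%, 68.4%, 13.2% and 10.5%. The 38 members include those below the RNA level filter, whereas all 15516 genes passed it, so the sets are not alike in this. A peak in both WT libraries and in no cKO library was found at 20 of 38 members, beside 37.5% of all genes. *Ndc80*, *Mcm3*, *Mcm5* and *Mcm6* were among these 20, *Kif11* also had a peak in cKO replicate 2, and *Top2a* and *Mki67* had a peak in WT replicate 1 alone. No member had a peak in both cKO libraries. Among all genes this was also rare, at 353 of 15516 (2.28%). At such a share, a set of 38 is too small to show a difference from all genes. Over the whole genome the cKO lists held 55902 and 68317 peaks and the WT lists 76522 and 42265, so that the sizes of the lists overlapped.

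**Figure D5:**
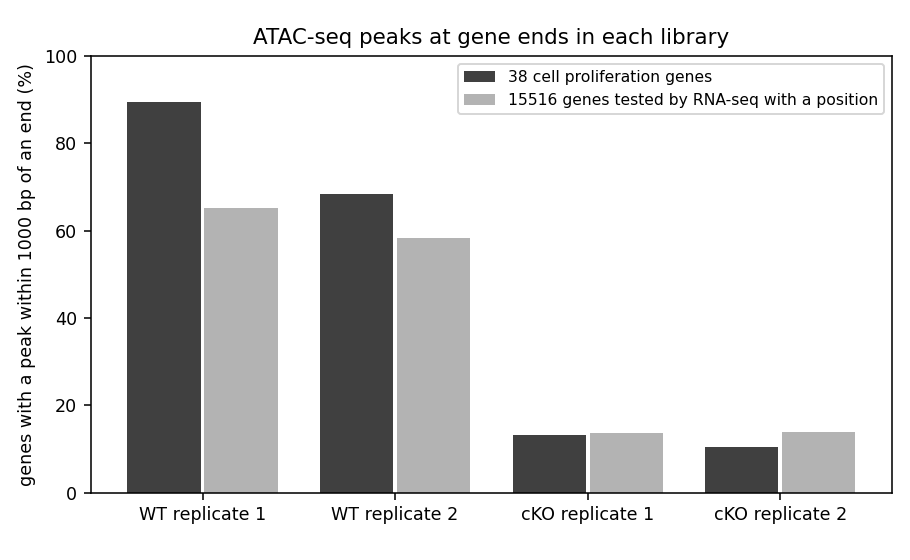
Percentage of the 38 members (dark) and of 15516 tested genes (grey) with an ATAC-seq peak within 1000 bp of a gene end, in each of the 4 libraries. Both shares are high in the WT libraries (68.4% and 89.5% of members) and low in the cKO libraries (10.5% and 13.2%).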

How the data were processed

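RNA-seq and ATAC-seq libraries of Thy1.2-sorted retinal cells were used, and groups came from the sample labels. The TPM values deposited by the authors were made from reads filtered with Trimmomatic, quantified with Salmon 1.0.0 against GENCODE vM23 and summed to genes with tximport. They are no counts and keep no depth, so the depth and the counting error of each library are unknown. Deposited ATAC-seq files hold, as log2 values, the mean normalized reads of each group from DiffBind, and the positions of peaks called with MACS2 2.2.5 in each library after alignment to GRCm38 with Bowtie2 2.3.5.1. The columns of the authors' own comparisons (DESeq2 1.26.0 fold changes and p-values for RNA, DiffBind fold changes and p-values for ATAC) were not used.

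Genes with at least 1 TPM in at least 3 of 6 libraries were tested with limma 3.58.1 (R 4.3.3) on log2(TPM + 1), with empirical Bayes, a trend and Benjamini-Hochberg adjustment over all genes, and the steps were tested on simulated data. Fold changes on this scale understate those of low genes. The pseudocount, the filter, the trend, the scaling between libraries, a replicate block and each single library were varied. Deviations of libraries with the same number correlated at r = 0.33, 0.10 and 0.42 over genes, from the label numbers. Pairs of different numbers had r of −0.39 to 0.19, so that a pairing of replicate 2 was not clear. The fit with the block is given beside a result where it moved a count. Gene positions and promoters came from RefSeq (GRCm38.p6). Region starts, counted from 0 in the file, are given from 1. A region or peak was assigned to a member within 1000 bp of either gene end.

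Values in every library are given for 8 preset genes, members with an unadjusted p under 0.05, the 3 highest members, the 3 of lowest p against the median direction, and in part for the 2 of lowest p in each pathway list. Other members are named so that all 38 are accounted for. Members and lists were chosen with earlier results of these data known. 1 listed symbol, *H2az1*, was counted under *H2afz*, and *Cdkn2a* was listed at 0 in every library. 1 listed marker is not reported here. Further marker lists gave summed TPM of 437 to 619 in WT and 884 to 1696 in cKO for amacrine cells, of 689 to 1050 and 1047 to 1454 for bipolar cells, of 1764 to 2398 and 3176 to 5875 for cones, of 3508 to 7297 and 2797 to 7116 for Mueller glia and astrocytes, of 384 to 1044 and 273 to 771 for endothelial cells and pericytes, of 94.3 to 1353 and 130 to 234 for erythrocytes, and of 13102 to 17503 and 14765 to 18482 for housekeeping genes.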

Additional observations from a re-analysis of the deposited data

How the results depend on the processing

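No member and no other cell cycle gene passed the adjusted threshold in any setting, and of the recomputed values of the main results 255 moved little and 37 moved by more than 1.5 times or by more than the spread of the libraries. Where no reason follows from the setting itself (fewer genes tested, fewer libraries), the cause was not tested. With the replicate block, 1 gene of all genes was lower at adjusted p under 0.05 (0 to 1 when single libraries were left out), and 1 member and 2 other cell cycle genes were higher at an unadjusted p under 0.05, where 9 members were lower. The block changed no call of a member at the adjusted threshold, where its lowest adjusted p from limma was 0.0901 (*Mcm3*). Without a trend, 4 genes of all were higher at adjusted p. Scaled by the median of ratios, 1338 genes were higher at an unadjusted p, the median of all genes was 0.012, and 20 other cell cycle genes were lower. With no filter the median of all genes was 0.077, that of cyclins and *Cdk1* −0.15 and that of the kinetochore genes −0.23. *Ndc80*, the kinetochore gene tested, was at −2.001 with a pseudocount of 0.1. With a mean TPM of at least 5, 3 of 15 members and 6 of 59 other cell cycle genes were lower. Leaving out single libraries gave 697 to 1386 genes lower and 1034 to 2366 higher at an unadjusted p, a median of all genes of 0.072 to 0.24, 2 to 15 members lower, 5 to 19 other cell cycle genes lower and 1 to 2 higher.

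Single genes near 0 changed sign. Scaled by the median of ratios, *Ccne1* was at −0.12 and *Bub1b* at −0.11, and with a pseudocount of 0.1 *Plk1* was at 0.0090. When single libraries were left out, *Ccne1* ranged from −0.38 to 0.29 (−0.16 without cKO replicate 1), *Bub1b* from −0.18 to 0.25 (−0.046 and −0.14 without WT replicates 1 and 2), *Plk1* from −0.15 to 0.15 (0.0051 and 0.0096 without cKO replicates 1 and 2), *Prc1* from −0.49 to 0.12 (0.049 without WT replicate 2), *Mcm4* from −0.43 to 0.0045, *Rrm1* from −0.34 to 0.033 and *Rrm2* from −0.94 to 0.13. The spindle and replication medians ranged from −0.97 to −0.37 and from −0.76 to −0.20 when single libraries were left out.

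In ATAC-seq, 11 and 14 members had a peak in cKO replicates 1 and 2 within 3000 bp of an end (30.7% and 32.3% of all genes), and 2 and 1 at the start site alone (9.40% and 9.10%). No paired analysis was possible because the ATAC-seq comparison gives group values alone. TPM keeps no depth, so that how far low members such as *Cdk1* and *Foxm1* could be measured is unknown.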
